A study of Mus musculus with 6 samples.

Results

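Complex I of the respiratory chain is built from subunits of both genomes of the cell, and its genes were described here in hearts of aged female mice. The members were the rows of the deposited gene table whose symbol starts with Nduf, without the Ndufaf assembly factors, or with mt-Nd. This rule found 46 of 22298 genes, of which 39 are nuclear and 7 are mitochondrially encoded, and all 46 passed the filter on low counts. Poly(A)-selected RNA was sequenced from wild-type hearts aged 18 months, 3 after TAC surgery and 3 after sham surgery. TAC usually stands for transverse aortic constriction, in which the aorta is tied narrower and the heart must pump against a raised pressure. The labels name no allele or agent besides the surgery, and they give no time between surgery and sampling. The comparison asked how the RNA of nuclear and of mitochondrially encoded subunits stood in TAC and in sham hearts, library by library.

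Complex I, or NADH:ubiquinone oxidoreductase, passes electrons from NADH to ubiquinone and pumps protons across the inner mitochondrial membrane. Its peripheral arm, which holds the flavin and the iron-sulfur clusters, is made from nuclear genes, while the proton-pumping core of its membrane arm is made from the mt-Nd genes. Many further nuclear subunits, called supernumerary, surround this core. The heart makes most of its ATP by oxidative phosphorylation, and its cardiomyocytes are rich in the complex. The mt-Nd mRNAs come from long transcripts of the mitochondrial DNA, made by a polymerase of the organelle, and not from the nuclear transcription machinery.

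Total estimated counts lay between 22172718 and 25799573 in TAC libraries and between 19747265 and 27549838 in sham libraries. On the first principal component of all tested genes (54.6% of the variance) TAC replicate 1 was at 0.65, while TAC replicates 2 and 3 were at 48.9 and 53.5 and the sham libraries between -37.3 and -31.4. TAC replicate 1 thus stood between the groups on this component, nearer to the sham libraries than to the other TAC libraries. Its values are given separately throughout. Of the 13708 genes tested with edgeR's quasi-likelihood test, 1.66% passed an adjusted p of 0.05, made up of 1.12% that were higher in TAC and 0.54% that were lower. All 16 listed cardiomyocyte markers were detected in each library. The labels number separate hearts within each surgery, so the p-values rest on the spread between hearts.

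The mitochondrially encoded subunits made up more RNA relative to the nuclear subunits in TAC hearts than in sham hearts. Summed counts of the 7 mt-Nd genes were 7.58, 10.5 and 9.17 times those of the 39 nuclear subunits in TAC replicates 1, 2 and 3. In sham replicates 1, 2 and 3 the same ratio was 6.69, 5.78 and 5.53. The groups did not overlap, and TAC replicate 1 was the lowest of the TAC libraries. On the log2 scale the ratio averaged 3.17 ± 0.24 in TAC and 2.58 ± 0.14 in sham (SD, n = 3 each), a difference of 0.59 or 1.51-fold. Taken per length, from summed FPKM (fragments scaled to gene length and library depth), the ratio was 6.73, 9.27 and 8.02 in TAC and 6.04, 5.32 and 5.05 in sham. This ratio is taken within a library and needs no scaling between libraries. No test was made of it, since it is a score over chosen members. A higher ratio in TAC was not particular to the mt-Nd genes. The other 6 mitochondrially encoded genes summed to 26.4, 31.7 and 30.8 times the nuclear subunits in TAC replicates 1, 2 and 3. In sham replicates 1, 2 and 3 that ratio was 26.3, 23.8 and 23.2, so TAC replicate 1 was barely above sham replicate 1.

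**Figure D1:**
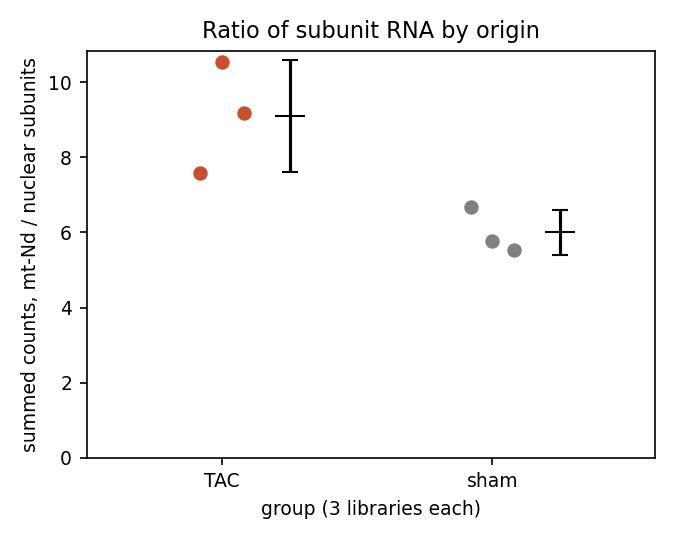
Summed counts of the 7 mt-Nd genes divided by those of the 39 nuclear subunits (y axis, from 0) in TAC and sham hearts, 1 point per library, with the mean and SD of each group as a bar. The TAC libraries lie between 7.58 and 10.5 and the sham libraries between 5.53 and 6.69.

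The numerator and the denominator of this ratio stood apart from sham in different libraries. The nuclear subunits held 0.895%, 0.702% and 0.673% of all counts in TAC replicates 1, 2 and 3, against 0.882%, 0.920% and 0.896% in sham replicates 1, 2 and 3. TAC replicate 1 was thus within the sham range and TAC replicates 2 and 3 were below it. The mt-Nd genes held 6.79%, 7.39% and 6.17% of all counts in the TAC libraries and 5.90%, 5.32% and 4.96% in the sham libraries, so that every TAC library was above every sham library. The Wilson intervals of 95% around these shares extended at most 0.00412 percentage points for the nuclear and 0.0106 for the mt-Nd subunits and cover counting error only. After scaling by TMM (a normalization that trims extreme genes) to CPM (counts at an equalised sequencing depth), the sums of mt-Nd RNA were 71284, 74981 and 58197 CPM in TAC against 59751, 53890 and 48268 CPM in sham. On that scale TAC replicate 3 lay below sham replicate 1, so the absence of overlap in mt-Nd share depended on the scaling. In bulk tissue, fewer cells of a type and less RNA per cell cannot be told apart.

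No subunit gene passed the test across all genes. Of 39 nuclear subunits, 0 were called higher and 0 lower, beside 1.12% and 0.54% of all tested genes, and at an unadjusted p under 0.05 1 was lower (9.26% of all tested genes were). DESeq2's Wald test, limma-voom and limma-trend on FPKM also called 0 nuclear subunits, where DESeq2 called 4.36% of all tested genes lower. All 39 had a negative log2 fold change, where 47.1% of all tested genes had one. Their median was -0.21 (range -0.45 to -0.0035) beside 0.03 over all tested genes. Of 7 mt-Nd genes, 0 were called higher and 0 lower by edgeR, and at an unadjusted p under 0.05 3 were higher (16.3% of all tested genes were). All 7 had a positive log2 fold change, where 52.9% of all tested genes had one, with a median of 0.37 (range 0.04 to 0.83). DESeq2's Wald test called 2 of them higher, mt-Nd4l and mt-Nd4, where it called 7.81% of all tested genes higher.

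**Figure D2:**
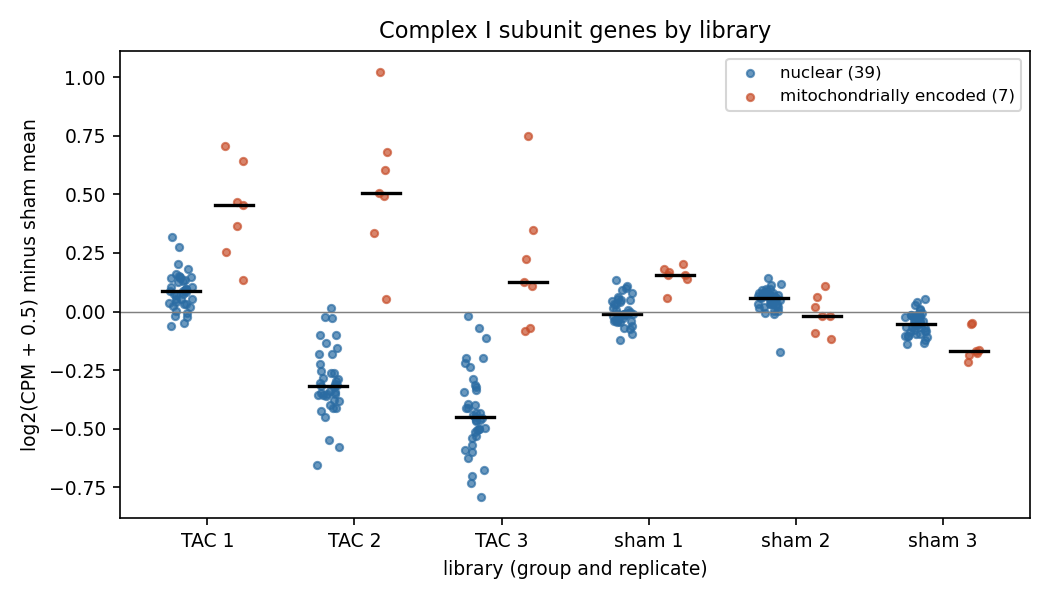
Level of each subunit gene in each library as log2(CPM + 0.5) minus the mean of the sham libraries (y axis), with 39 nuclear genes in blue, 7 mitochondrially encoded genes in orange and the median of each set as a black bar. The nuclear medians of TAC replicates 1, 2 and 3 are 0.09, -0.32 and -0.45, and those of the mt-Nd genes are 0.45, 0.51 and 0.13.

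The nuclear subunits split the TAC libraries. In TAC replicate 2, 35 of 39 nuclear subunits were below all 3 sham libraries and 0 were above them, where 38.4% of all tested genes were below and 38.8% above. In TAC replicate 3, 38 were below and 0 above, where 36.7% of all tested genes were below and 43.2% above. In TAC replicate 1, 1 was below and 22 were above, where 28.3% of all tested genes were below and 36.0% above. The mt-Nd genes had another order, with 7 of 7 above all sham libraries in TAC replicate 1, 6 in TAC replicate 2 and 3 in TAC replicate 3, and none below. Groups of CPM did not overlap for 1 nuclear subunit (lower) and for 3 mt-Nd genes (higher), where 13.1% and 18.4% of all tested genes had no overlap in these directions.

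Among the mt-Nd genes, the pair that shares a transcript had the highest log2 fold changes. The mt-Nd4l and mt-Nd4 reading frames overlap by 7 bases on the plus strand of the mitochondrial genome, so that the counts of the shared stretch could belong to either. In the GRCm38 sequences below, 40 bases each from chrM:10134-10173 and chrM:10167-10206, capitals mark the shared bases, which hold the start codon of mt-Nd4 and the stop codon of mt-Nd4l.
end of mt-Nd4l: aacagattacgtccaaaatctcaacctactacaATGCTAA
start of mt-Nd4: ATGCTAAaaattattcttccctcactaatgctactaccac
The overlap is 2.36% of mt-Nd4l (297 bases) and 0.51% of mt-Nd4 (1378 bases), and the deposited counts of both genes were whole numbers.

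mt-Nd4l, a small membrane subunit next to the ubiquinone site, had the largest log2 fold change of the 46 genes. It stood at 1099, 1369 and 1134 CPM in TAC replicates 1, 2 and 3 and at 775, 665 and 592 CPM in sham replicates 1, 2 and 3. Every TAC library was above every sham library. Its log2 fold change of 0.83 (SE 0.16) had an adjusted p = 0.0508 in edgeR, just outside the threshold. Scaling by library totals alone (adjusted p = 0.0428), a minimum count of 100 (0.0471) and DESeq2 (6.02e-05) put it inside, as did leaving out TAC replicate 1 (edgeR adjusted p = 0.0147). Over all 16 alternatives its edgeR, DESeq2 or limma adjusted p ranged up to 0.263 and its log2 fold change from 0.69 to 0.91.

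mt-Nd4, one of the antiporter-like subunits that pump protons, was at 18132, 18601 and 14761 CPM in TAC against 13145, 11464 and 10360 CPM in sham. These groups did not overlap either (log2 fold change 0.56, SE 0.17, edgeR adjusted p = 0.0960). mt-Nd2, another antiporter-like subunit, was at 10973, 11266 and 8544 CPM in TAC and at 8821, 8034 and 7017 CPM in sham (log2 fold change 0.37, SE 0.17, edgeR adjusted p = 0.222). Here TAC replicate 3 lay within the sham range. mt-Nd5, which sits at the tip of the membrane arm and is the largest of the pumping subunits, was at 14137, 15484 and 11997 CPM in TAC and at 12110, 10321 and 10605 CPM in sham. Here too TAC replicate 3 was below sham replicate 1 (log2 fold change 0.33, SE 0.16, edgeR adjusted p = 0.232).

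mt-Nd6 lies on the opposite strand from the other mt-Nd genes, and its last bases overlap those of mt-Nd5. The sequences below, 40 bases from chrM:13526-13565 on the plus strand and from chrM:13552-13591 on the minus strand of GRCm38, have the 14 shared bases in capitals.
end of mt-Nd5: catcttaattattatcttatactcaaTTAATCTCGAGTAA
end of mt-Nd6: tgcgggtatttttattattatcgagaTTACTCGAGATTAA
The protocol does not state that strand was kept, so RNA antisense to mt-Nd6 cannot be told apart from mt-Nd6 itself. mt-Nd6, which encodes a subunit of the membrane arm, was at 2789, 3097 and 2379 CPM in TAC and at 2286, 1880 and 1965 CPM in sham. The groups did not overlap (log2 fold change 0.43, SE 0.16, edgeR adjusted p = 0.146). Counts of mt-Nd6 were 19.9% ± 0.138 of those of mt-Nd5 in TAC, against 18.5% ± 0.334 in sham (SD, n = 3 each), and this proportion did not overlap between the groups.

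The remaining mt-Nd genes had the smallest log2 fold changes of the 7, and their groups overlapped. mt-Nd1, which forms the entry to the ubiquinone site, was at 20781, 21970.2 and 16457 CPM in TAC and at 19409, 18208 and 14995 CPM in sham (log2 fold change 0.17, SE 0.18, edgeR adjusted p = 0.572). mt-Nd3, whose loop moves between the active and the resting form of the enzyme, was at 3373, 3195 and 2925 CPM in TAC and at 3204, 3318 and 2735 CPM in sham. Its TAC libraries were spread across the sham range and above it, with 0.04 (SE 0.15) as the log2 fold change and an adjusted p = 0.897 in edgeR. The sign of the mt-Nd3 value turned negative without TAC replicate 1 (-0.03) and without sham replicate 3 (-0.05). Per length, mt-Nd1 was the most abundant of the 7 (mean FPKM 20515 in TAC and 18293 in sham) and mt-Nd4l the least (4040 in TAC and 2278 in sham).

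**Figure D3:**
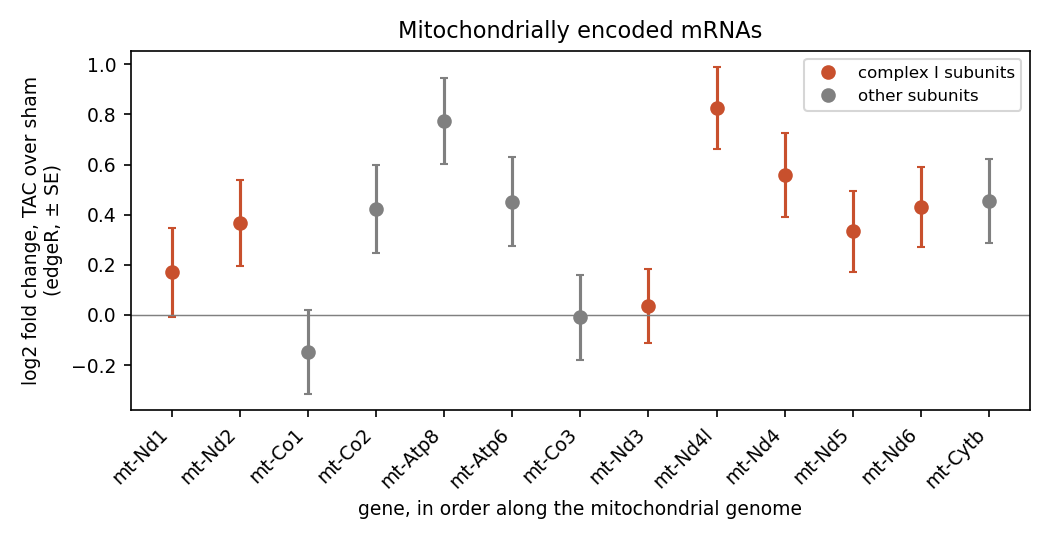
Log2 fold change, TAC over sham, with its SE (y axis, edgeR) for the 13 mitochondrially encoded mRNAs in their order along the mitochondrial genome (x axis), complex I subunits in orange and the others in grey. Values run from -0.15 for mt-Co1 to 0.83 for mt-Nd4l, and the neighbours mt-Nd3 (0.04) and mt-Nd4l (0.83) have the lowest and the highest value of the mt-Nd genes.

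Positive values were also found among the other mitochondrially encoded genes. Of the other 6, which encode subunits of cytochrome bc1, cytochrome oxidase and ATP synthase, 0 passed the edgeR test (4 were higher at an unadjusted p under 0.05), 4 had a positive and 2 a negative log2 fold change, and their median was 0.44. The most abundant of these, mt-Co1 and mt-Co3, which encode core subunits of cytochrome oxidase, stood at -0.15 (SE 0.17) and -0.01 (SE 0.17) in log2 fold change. mt-Co1 held 42.3%, 38.8% and 40.6% of the counts of the 13 genes in TAC and 47.7%, 46.5% and 49.7% in sham. The mt-Nd genes held 22.3%, 24.9% and 23.0% of them in TAC against 20.3%, 19.5% and 19.2% in sham, without overlap. With mt-Co1 left out of the denominator, an alternative chosen after seeing the data, the mt-Nd share was 38.6%, 40.7% and 38.6% in TAC and 38.8%, 36.5% and 38.3% in sham, and the groups overlapped.

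The nuclear core subunits, the 7 conserved ones of the peripheral arm, had a median log2 fold change of -0.30, against -0.19 for the 32 other nuclear subunits. All 7 were below every sham library in TAC replicates 2 and 3, where 38.4% and 36.7% of all tested genes were. At the NADH end of the arm, Ndufv1, which binds the flavin and NADH, was at 526, 385 and 368 CPM in TAC replicates 1, 2 and 3 and at 483, 552 and 545 CPM in sham. Its TAC replicate 1 lay within the sham range (log2 fold change -0.31, SE 0.17, edgeR adjusted p = 0.295). Ndufv2, an iron-sulfur subunit beside it, was at 439, 344 and 292 CPM in TAC and at 472, 437 and 415 CPM in sham (log2 fold change -0.30, SE 0.17, edgeR adjusted p = 0.305). Ndufs1, the large iron-sulfur subunit, was at 518, 455 and 316 CPM in TAC and at 491, 500 and 475 CPM in sham. Its value was the closest to 0 among the 7 (log2 fold change -0.18, SE 0.19, edgeR adjusted p = 0.563).

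Toward the ubiquinone site, Ndufs8, an iron-sulfur subunit, had the lowest log2 fold change of all 46 genes. It was at 177, 116 and 110 CPM in TAC and at 180, 188 and 181 CPM in sham. It was the 1 nuclear subunit whose groups did not overlap, by a narrow margin in TAC replicate 1 (log2 fold change -0.45, SE 0.19, edgeR adjusted p = 0.185). Ndufs7, which holds the last cluster before ubiquinone, was at 214, 159 and 125 CPM in TAC and at 190.2, 220.0 and 200.3 CPM in sham (log2 fold change -0.30, SE 0.20, edgeR adjusted p = 0.369). Ndufs3, a core subunit without a cluster, was at 336, 256 and 203 CPM in TAC and at 298, 322 and 303 CPM in sham. Its TAC replicates 2 and 3 were below and its TAC replicate 1 above the sham range (log2 fold change -0.22, SE 0.19, adjusted p = 0.495 by edgeR).

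The 32 supernumerary nuclear genes ran from -0.34 to -0.0035 in log2 fold change, and the groups overlapped in all 32. Membership is by symbol, so the 32 include Ndufb1-ps, which GENCODE annotates as a long non-coding RNA of a bidirectional promoter. Without Ndufa4, Ndufa4l2, Ndufab1 and Ndufb1-ps the log2 ratio of mt-Nd to nuclear counts differed by 0.60 between TAC and sham. Ndufa10, of the nucleoside kinase fold, was the lowest, at 479, 364 and 303 CPM in TAC and at 462, 505 and 488 CPM in sham (log2 fold change -0.34, SE 0.18, edgeR adjusted p = 0.266). Ndufa2, of a thioredoxin-like fold, was the highest, at 92.9, 69.8 and 66.8 CPM in TAC and at 76.9, 78.6 and 74.5 CPM in sham (log2 fold change -0.0035, SE 0.14, edgeR adjusted p = 0.990). Its TAC replicate 1 was above the sham range and TAC replicates 2 and 3 were below it. Ndufa4, now assigned to cytochrome oxidase rather than to complex I, was the most abundant nuclear member per length. It was at 701, 574 and 568 FPKM in TAC replicates 1, 2 and 3 and at 740, 744 and 691 FPKM in sham (log2 fold change from CPM -0.23, SE 0.16, edgeR adjusted p = 0.381). Its paralog Ndufa4l2, known as a hypoxia-induced gene, was the least abundant, with mean FPKM of 18.0 in TAC and 18.5 in sham and a log2 fold change of -0.04 (SE 0.14).

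By symbol, the median log2 fold change was -0.16 over 15 Ndufa genes, -0.21 over 11 Ndufb genes, -0.18 over 2 Ndufc genes, -0.24 over 8 Ndufs genes and -0.30 over 3 Ndufv genes. Counts of the 7 core subunits were 47.2%, 46.0% and 41.8% of those of the 32 supernumerary genes in TAC, against 47.6%, 48.3% and 49.9% in sham, and the groups did not overlap. TAC replicate 1 was close to the sham range in this measure. Across the 39 nuclear genes the log2 fold change had a Spearman correlation of -0.45 with mean FPKM and of -0.37 with exonic length, where exonic length is the union of all annotated exons of a gene and not the length of its mRNA. These are descriptions across genes of the same libraries. Per length the nuclear genes had a median of mean FPKM of 182 in TAC and 211 in sham, where the 7 mt-Nd genes had medians of 9064 and 7655.

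**Figure D4:**
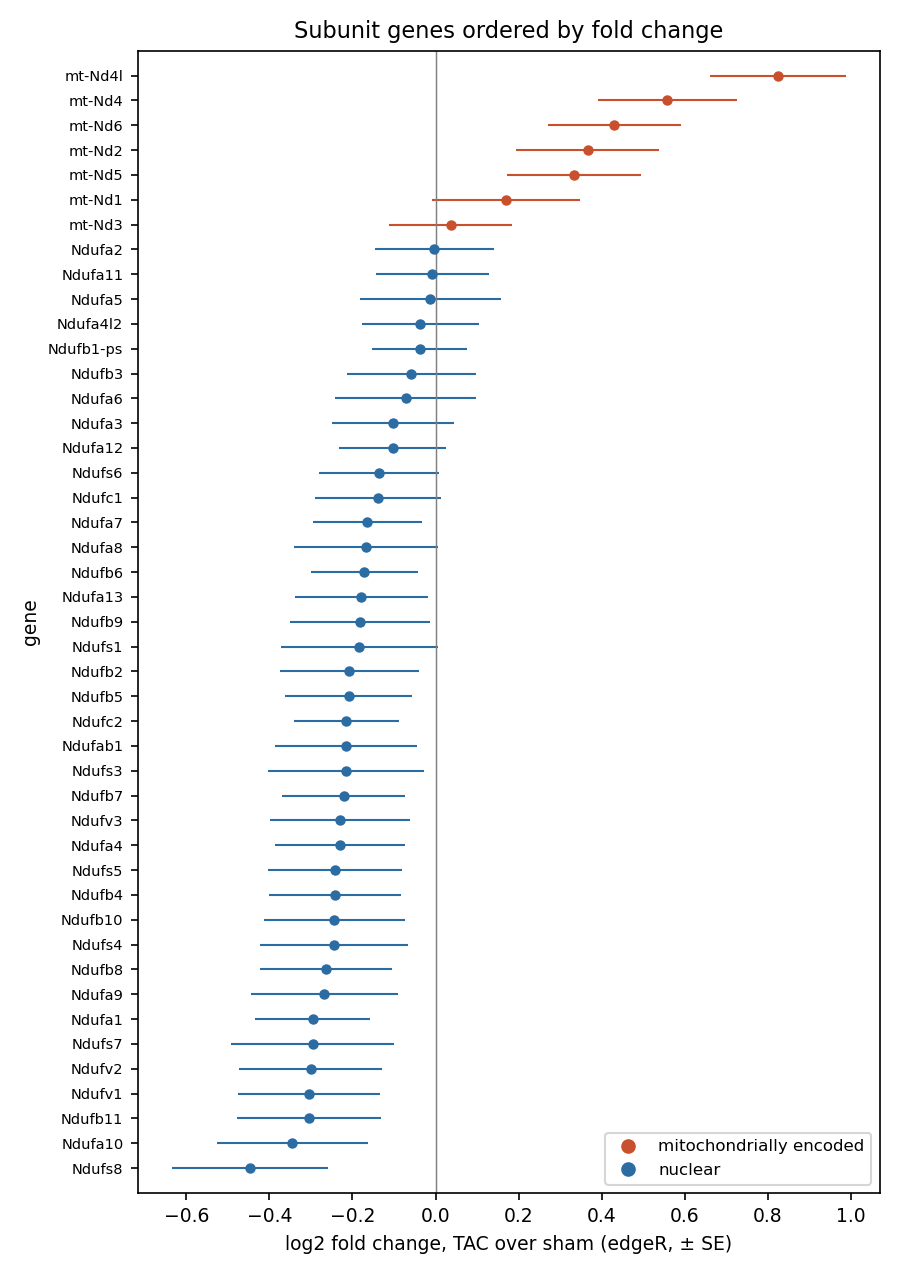
Log2 fold change, TAC over sham, with its SE (x axis, edgeR) for 45 subunit genes in order (y axis), mitochondrially encoded genes in orange and nuclear genes in blue. The 7 mt-Nd genes take the top places, from 0.04 to 0.83, and the nuclear genes run from -0.0035 for Ndufa2 to -0.45 for Ndufs8.

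The log2 fold change was negative in the main test and in all 16 alternatives for 33 of the 39, and under the scaling alternatives (DESeq2 size factors, upper quartile, library totals, TMM without mitochondrial genes) it was negative for every one of the 39. The 6 that turned slightly positive somewhere were Ndufa2, Ndufa5, Ndufa6, Ndufa11, Ndufa4l2 and Ndufb3, by at most 0.11 on the log2 scale. Reads of several members may be shared with other genes. Of the 39, 16 share exonic bases with another gene of the table, 14 of them with a gene on the opposite strand. The largest overlaps were 39.0% of Ndufb6 with Smim27, 30.0% of Ndufa13 with Tssk6 and 19.5% of Ndufb9 with Gm49356. Ndufb6 and Ndufb9 were also the 2 members with fractional counts.

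The promoters of the nuclear members were searched for 4 motifs of factors known to regulate mitochondrial genes. No link between a motif and the levels in TAC was tested. The window ran from 250 bases before to 50 after the start of transcription in RefSeq (GRCm38.p6), and 34 of the 39 genes had an entry. AAGATGGC, a core of YY1 sites, was found in 7 of 34 (20.6%), against 3.19% of 27025 genes with a promoter of this length. CCGGAAG, an ETS core bound by GABP, was found in 4 (11.8%, against 9.93%), a palindromic NRF1 site in 1 (2.94%, against 1.07%) and TCAAGGTCA, a site of ERR receptors, in 0 (against 0.466%). Both strands were searched for exact letters, and those of the NRF1 site are the capitals in Ndufa11. A match is a description of the letters and not of binding. For each motif found, the member with the lowest log2 fold change that holds it is shown, with the motif in capitals: Ndufs8 at chr19:3912725-3913024 (minus strand, ETS core read on the other strand), Ndufs7 at chr10:80249199-80249498 (plus strand, YY1 core) and Ndufa11 at chr17:56717512-56717811 (plus strand, NRF1 site).
Ndufs8: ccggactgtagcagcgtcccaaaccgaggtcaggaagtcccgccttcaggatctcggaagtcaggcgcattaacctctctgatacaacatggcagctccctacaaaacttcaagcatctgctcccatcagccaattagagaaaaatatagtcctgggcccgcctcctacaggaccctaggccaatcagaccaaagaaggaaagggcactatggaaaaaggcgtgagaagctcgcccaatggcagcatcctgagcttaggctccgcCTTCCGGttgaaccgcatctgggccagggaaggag
Ndufs7: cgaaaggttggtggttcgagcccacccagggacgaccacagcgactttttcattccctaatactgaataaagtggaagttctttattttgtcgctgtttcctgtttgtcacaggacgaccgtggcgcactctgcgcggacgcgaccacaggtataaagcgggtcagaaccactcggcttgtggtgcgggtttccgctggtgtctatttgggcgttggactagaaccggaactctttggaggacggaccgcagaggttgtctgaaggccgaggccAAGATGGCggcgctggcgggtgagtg
Ndufa11: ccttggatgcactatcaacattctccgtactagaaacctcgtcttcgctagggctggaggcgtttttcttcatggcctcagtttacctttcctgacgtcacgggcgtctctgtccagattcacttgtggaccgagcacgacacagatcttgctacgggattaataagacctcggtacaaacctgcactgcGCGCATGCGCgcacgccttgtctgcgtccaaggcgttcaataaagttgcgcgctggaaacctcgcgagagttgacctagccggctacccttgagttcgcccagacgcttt
In Ndufs8 and Ndufs7 the motif starts at base 266 and base 275 of the window, after the annotated start of transcription, and in Ndufa11 at base 191, before it.

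The nuclear complex I genes overlapped between the groups when set against the nuclear genes of the other complexes. Their summed CPM was 32.9%, 32.8% and 32.2% of that of listed nuclear genes of complexes II to V in TAC replicates 1, 2 and 3, and 32.2%, 31.6% and 31.5% in sham. None of the members of these 4 complexes passed the edgeR test, where 1.66% of all tested genes did. Log2 fold changes were negative for 4 of 4 genes of complex II and 8 of 9 of complex III. They were negative for 13 of 16 genes of complex IV and 14 of 15 of complex V, beside 47.1% of all tested genes. The most abundant were Sdha and Sdhb of succinate dehydrogenase (-0.20 and -0.30), Uqcrc1 and Uqcrfs1 of cytochrome bc1 (-0.39 and -0.42), Cox6a2 and Cox4i1 of cytochrome oxidase (-0.15 and -0.29) and Atp5b and Atp5a1 of ATP synthase (-0.31 and -0.35). Of 22 listed complex I assembly factors 21 were tested and 0 passed, beside the same 1.66% of all tested genes. Of these 21, 18 had a negative log2 fold change, where 47.1% of all tested genes had one, and the median was -0.20. The abundant members Ecsit and Tmem70, which act in building the membrane arm, had values of -0.36 (SE 0.14) and -0.22 (SE 0.13). Ecsit was among 4 of the 21 that were lower without overlap, where 13.1% of all tested genes were.

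Genes that govern the 2 sources of subunit RNA were also read. Over all tested genes edgeR called 1.66% in either direction, and 47.1% had a negative log2 fold change. At that share of calls, 0 calls in lists of this size say little about them. Of 29 tested genes of mitochondrial transcription and RNA handling, 0 passed, 11 had a positive and 18 a negative log2 fold change, and the median was -0.07. The most abundant, Grsf1 and Fastk, which encode RNA-binding proteins of mitochondria, had values of -0.13 (SE 0.15) and -0.45 (SE 0.15). Of 12 regulators of mitochondrial biogenesis, 0 passed, and 8 had a negative value (median -0.12). Perm1, a muscle regulator of oxidative genes, was at 306, 359 and 163 CPM in TAC and at 309, 312 and 315 CPM in sham, so that TAC replicate 3 was far below sham, TAC replicate 1 just below it and TAC replicate 2 above it. Esrra, the receptor ERR alpha, was lower in every TAC library (75.9, 67.5 and 65.6 CPM, against 79.9, 84.2 and 78.0 CPM in sham) and its log2 fold change was -0.21 with SE 0.11 and an adjusted p = 0.252 in edgeR. Other factors of the searched motifs differed in sign. Log2 fold changes were 0.36 for Gabpa (SE 0.14, higher in every TAC library), 0.06 for Gabpb1, -0.0034 for Yy1 and -0.10 for Nrf1. They were -0.44 for Esrrb (SE 0.19, lower in every TAC library) and -0.14 for Esrrg. Of the 12 regulators, 1 was higher and 2 were lower without overlap, where 18.4% and 13.1% of all tested genes were.

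Summed cardiomyocyte markers were below sham in the same TAC libraries as the nuclear subunits, while single markers differed in sign. The 16 markers summed to 83468, 70504 and 55039 CPM in TAC replicates 1, 2 and 3 and to 82226, 84829 and 82200.4 CPM in sham, with a median log2 fold change of -0.27 and 0 passing the edgeR test. Of the 16, 11 had a negative and 5 a positive log2 fold change. Below all sham libraries were 5, 10 and 13 of the 16 in TAC replicates 1, 2 and 3, and above them 9, 5 and 2. Of all tested genes, 28.3%, 38.4% and 36.7% were below in these libraries and 36.0%, 38.8% and 43.2% above. The myosin gene Myh6 and the calcium pump gene Atp2a2, the most abundant, were at -0.47 (SE 0.17) and -0.50 (SE 0.22). Myh6 was at 16543, 14267 and 11526 CPM in TAC and 19104.5, 19392 and 20273 CPM in sham. Atp2a2 was at 12827, 8699 and 7133 CPM in TAC and 13044, 14146 and 13467.5 CPM in sham. The marker sum, and proportions of it, thus rest largely on a few abundant genes. The positive ones, named after their values were seen, were Actc1 (0.10), Tnnt2 (0.17), Tnnc1 (0.21), Ttn (0.10) and Actn2 (0.09), and every TAC library was above every sham library for Actn2. Relative to this marker sum, the nuclear subunits were at 11.3%, 10.1% and 11.5% in TAC and at 10.87%, 10.99% and 10.61% in sham, and the groups overlapped. The mt-Nd genes were at 85.4%, 106% and 106% of the marker sum in TAC, against 72.7%, 63.5% and 58.7% in sham, and did not overlap.

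Markers of other cells differed too, and their part in these values was not tested. For comparison with the calls below, edgeR called 1.12% of all tested genes higher in TAC and 0.54% lower. The 12 leukocyte markers summed to 652, 1099 and 1131 CPM in TAC and to between 507 and 591 CPM in sham, and 4 rose (S100a9, Cd68, S100a8 and Ptprc, with log2 fold changes of 4.77, 1.56, 4.97 and 1.99 and edgeR adjusted p of 0.0327 to 0.0410). The 6 red cell markers summed to 3484, 1925 and 2334 CPM in TAC and to between 938 and 1634 CPM in sham, and 2 rose (Slc4a1 by 3.38 and Alas2 by 1.36). Of 10 endothelial markers 2 fell, Aqp1 by 1.02 and Tie1 by 0.63 on the log2 scale, with sums of 2110 to 2270.05 CPM in TAC and 2572 to 2828 CPM in sham. The other 8 did not pass, and 2 of them, named after their values were seen, had positive values, Emcn (0.38, SE 0.10, edgeR adjusted p = 0.0835, groups without overlap) and Fabp4 (0.09). None of 10 fibroblast markers passed (sums of 3115 to 3742 CPM in TAC and 4916 to 5620.5 CPM in sham), among them the abundant Gsn (-1.12, SE 0.29) and Dcn (-0.19, SE 0.23). Gsn weighed most in these sums, at 1719, 1339 and 725 CPM in TAC and 2790, 2573 and 2852 CPM in sham. All 10 had a negative log2 fold change, but the groups overlapped for 8 of them. None of 5 tested smooth or skeletal muscle markers passed (sums of all 8 listed of 839 to 1542 CPM in TAC and 752 to 1154 CPM in sham). Acta1 (1.19, SE 0.40) was the 1 positive marker, at 417, 1151 and 1004 CPM in TAC and 486, 232 and 405 CPM in sham. The 4 smooth muscle markers Myh11, Acta2 (-0.60, SE 0.15), Tagln and Cnn1 were negative. Each was lower in every TAC library than in every sham library, where 13.1% of all tested genes were. The skeletal myosin gene Myh4 was at 0 in all libraries and Myh1 and Myh2 in 3 libraries each, and every other listed marker was detected in all 6.

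**Figure D5:**
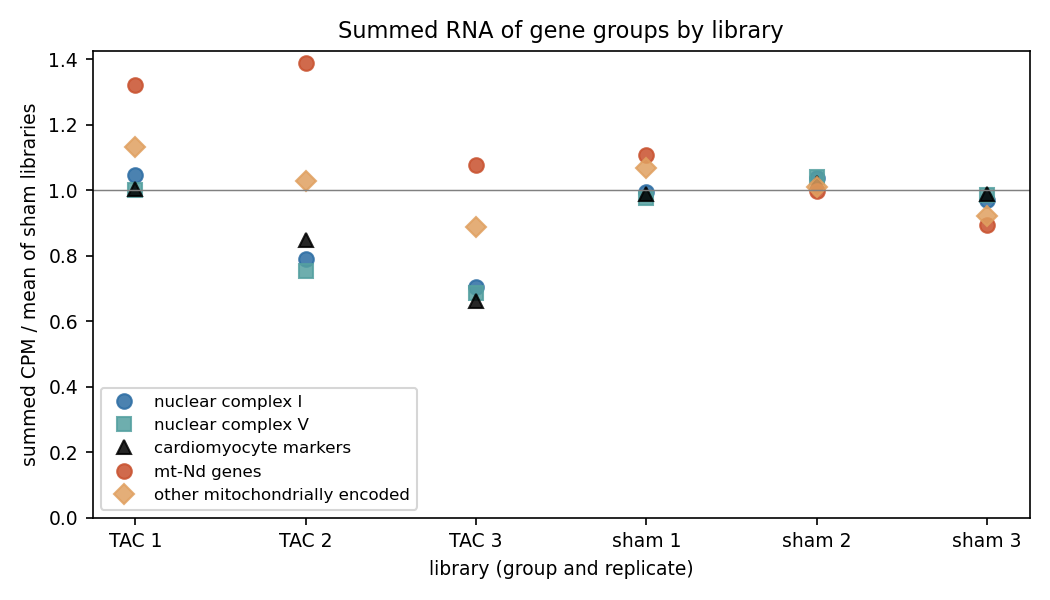
Summed CPM of 5 gene groups (nuclear complex I, nuclear complex V, cardiomyocyte markers, mt-Nd genes and the other 6 mitochondrially encoded genes) in each library (x axis), divided by the mean of the sham libraries (y axis, from 0). In TAC replicates 2 and 3 the nuclear complex I genes, the nuclear complex V genes and the cardiomyocyte markers lie below 1 and the mt-Nd genes above it, while in TAC replicate 1 the nuclear groups are near 1 and the mt-Nd genes above it. The other mitochondrially encoded genes are above 1 in TAC replicates 1 and 2 and below it in TAC replicate 3.

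Calls on members depended on TAC replicate 1. Without it, edgeR called 18 of 39 nuclear subunits lower and 0 higher, where 10% of all genes tested in that fit were called lower and 13.2% higher. The median log2 fold change of the nuclear subunits was then -0.39, against -0.21 with all libraries and -0.12 without TAC replicate 3. The lowest was Ndufs8 (-0.71, edgeR adjusted p = 0.00811). Of the mt-Nd genes, mt-Nd4l was called higher. Leaving out any other single library gave 0 calls among the 46.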

How the data were processed

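Members and gene lists were chosen with earlier results of these data known. The authors deposited 1 table, which holds for each gene and library an FPKM value and an estimated count, per the file headers. The build GRCm38 and the tools HISAT2, Bowtie2 2.2.8, DESeq2 and StringTie 1.3.1 are named, per the submitters' processing notes, without the step that each made. Symbols came from GENCODE annotation of the same build, which matched 22255 of 22298 identifiers.

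Estimated counts were rounded to whole numbers. The main test was edgeR 4.0.16 (R 4.3.3), with a filterByExpr minimum count of 10, TMM factors and glmQLFTest after glmQLFit, as a two-sided comparison of TAC with sham without covariates, with Benjamini-Hochberg adjustment over 13708 genes and a threshold of 0.05. The script was tested on simulated data. The SE is the size of the log2 fold change divided by the square root of F. Alternatives used DESeq2 1.42.0 and limma 3.58.1 (voom, and trend on log2 of the deposited FPKM plus 1). No libraries were duplicates, since chi-square over its degrees of freedom was 78.2 to 100 between TAC libraries and 11.7 to 18.1 between sham libraries. For TAC replicate 1 it was 28.0, 38.6 and 49.4 against sham replicates 1, 2 and 3. Against TAC replicates 2 and 3 it was 78.2 and 100, so this heart differed less from sham than from the other TAC hearts. All members enter the counts and sums, and 1 gene is not reported here by itself. Values in every library are given for the mt-Nd genes, the nuclear core subunits and the extreme or most abundant other subunit, and of other lists up to 4 called or the 2 most abundant genes are named. Markers of opposite sign and the factors of the searched motifs are named in addition.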

Additional observations from a re-analysis of the deposited data

How the results depend on the processing

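No member was called with the replicate number as a block, under which 48 genes in all were called higher and 26 lower, against 153 and 74 without it. Same-numbered libraries did not deviate together (correlations of 0.01, -0.11 and -0.02). With 3 libraries per group, these values show no pairing by number but cannot exclude one. DESeq2's Wald test called 1071 genes higher and 598 lower, 2 of them mt-Nd genes, limma-voom called 96 higher and limma-trend on FPKM 59. Library totals alone and a minimum count of 100 each called 1 mt-Nd gene. Leaving out each library gave 4 to 1837 genes higher and 8 to 1392 lower (1837 and 1392 without TAC replicate 1, and 4 to 82 and 8 to 52 without any of the others), 0 to 18 nuclear members lower and 0 to 1 mt-Nd genes higher. It gave median log2 fold changes of -0.39 to -0.12 (nuclear) and 0.27 to 0.47 (mt-Nd), a log2 ratio difference of 0.48 to 0.72 and a difference in mt-Nd share of 2.92 to 4.24 percentage points. That difference was 3.69 points with mt-Co1 and 1.46 without it, since mt-Co1 is part of the denominator. The ratio difference was 0.54 to 0.60 with FPKM, mean log2 CPM or fewer members. Of 736 values of single members under 16 alternatives, 696 kept their sign and side of the threshold, 23 passed it and 17 changed sign, none of them called. Where not stated, the cause was not tested.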

Other observations

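In both mitochondrial mRNAs that carry overlapping reading frames, the shorter frame had the larger value. mt-Atp8 (204 bases) and mt-Atp6 (681 bases), subunits of ATP synthase, share an mRNA as mt-Nd4l and mt-Nd4 do. Counts of mt-Atp8 were 2.41%, 3.01% and 3.19% of those of mt-Atp6 in TAC replicates 1, 2 and 3, against 2.25%, 2.24% and 2.41% in sham replicates 1, 2 and 3. Counts of mt-Nd4l were 6.06%, 7.36% and 7.68% of those of mt-Nd4 in TAC, against 5.90%, 5.80% and 5.71% in sham. For mt-Nd4l every TAC library was above every sham library. For mt-Atp8, TAC replicate 1 (2.413%) and sham replicate 3 (2.407%) were nearly equal, and TAC replicates 2 and 3 were above all sham libraries. In both pairs TAC replicate 1 was the nearest to the sham values. mt-Nd3 (348 bases), which is longer than both short frames and has an mRNA of its own, had overlapping groups. Counts of mt-Nd4l were 32.6%, 42.9% and 38.8% of those of mt-Nd3 in TAC and 24.2%, 20.1% and 21.6% in sham. Whether length or the overlap of frames bears on these values was not tested.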
